A study of Mus musculus with 8 samples.

Results

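Cholesterol and fatty acids are made by linked sets of enzymes whose genes share regulators. The 40 genes described here belong to that network in the mouse and were taken by symbol from a list of names. All 40 were found among the 38355 Ensembl genes of the count tables, each with 1 identifier, and all 40 passed the filter on low counts. They comprise 5 regulators, 7 enzymes of the mevalonate branch, 11 enzymes that lead from squalene synthesis to cholesterol, 8 genes of sterol transport, storage and export, and 9 genes of fatty acid synthesis, desaturation and elongation.

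RNA was sequenced from 8 whole colon tumours, 1 per mouse, of mice treated with the colon carcinogen azoxymethane. The control group was 4 Trp53ΔIEC tumours, and the other group was 4 Trp53ΔIECAktE17K tumours. In the field's notation, ΔIEC is deletion in intestinal epithelial cells, here of the tumour suppressor Trp53 in both groups, while E17K names a substitution that makes the kinase AKT active. The sources used here do not give the driver of the deletion, the way the Akt allele is expressed, or the age and sex of the mice. The comparison asks what active AKT adds to tumours that lack Trp53 in the epithelium.

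In cells with little sterol, the protein SCAP escorts the transcription factors SREBP1 and SREBP2 from the endoplasmic reticulum to the Golgi, where they are cleaved and released to the nucleus. SREBP2 mainly drives sterol synthesis and SREBP1 fatty acid synthesis, while INSIG proteins hold SCAP back when sterol is plentiful. The liver X receptors respond to oxysterols and drive sterol export through ABC transporters. AKT is known to favour SREBP activation and lipid synthesis in many cell types.

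The 8 libraries held 18572180 to 26268547 reads assigned to genes, and levels are given as CPM, the usual depth-scaled read count, after TMM scaling of the library sizes. Fold changes are Trp53ΔIECAktE17K over Trp53ΔIEC on the log2 scale, with a standard error (SE) or a 95% interval. A gene was called when its Benjamini-Hochberg adjusted p over all 16539 tested genes was under 0.05 in edgeR's quasi-likelihood test. The replicates are separate mice. Titles also carry a letter of unstated meaning, which is A in replicates 1 and 2 of the Trp53ΔIECAktE17K group and B in the other 6 tumours. No Trp53ΔIEC tumour has letter A. With the letter as a model term, the group difference therefore rests on Trp53ΔIECAktE17K replicates 3 and 4 against the Trp53ΔIEC tumours.

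Among the 40 genes, Srebf2 was the 1 gene called between the groups. Srebf2, which encodes SREBP2, fell by 43.8%, from 471 ± 54.5 to 265 ± 42.2 CPM (mean ± SD, n = 4 per group). Of the 18 sterol synthesis enzymes, 17 had log2 fold changes below 0 and 0 were called, with a median of -0.30. With the title letter as a term 14 of the 18 were below 0. The sterol exporter Abca1 lay the other way, at 62.2% above the Trp53ΔIEC level, and was not called. Of the 9 fatty acid genes, 6 had log2 fold changes below 0 and 3 above.

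Across the 40 genes, 1 was called, a lower one, where 4.2% of all tested genes were called and 0.756% were called lower. Log2 fold changes were below 0 in 32 of 40 genes (80.0%), against 48.9% of all tested genes. At an unadjusted p under 0.05, 9 of 40 were lower (22.5%), against a background of 8.07%, and 1 was higher, against 12.8%. The groups did not overlap in 3 genes that were lower, Srebf2, Mvd and Fads2, against a background of 5.88%, and in 1 that was higher, Abca1, against 8.34% (14.2% in both directions). The counts of separated groups are thus near the background or under it. The median log2 fold change was -0.25 over the 40 genes and 0.01 over all tested genes. DESeq2 called 4 of the 40 (Srebf2, Idi1, Stard4 and Abca1) where it called 12.1% of its genes (3.75% lower and 8.4% higher), and limma-voom called Srebf2 alone where it called 3.31% (0.695% lower and 2.61% higher).

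**Figure D1:**
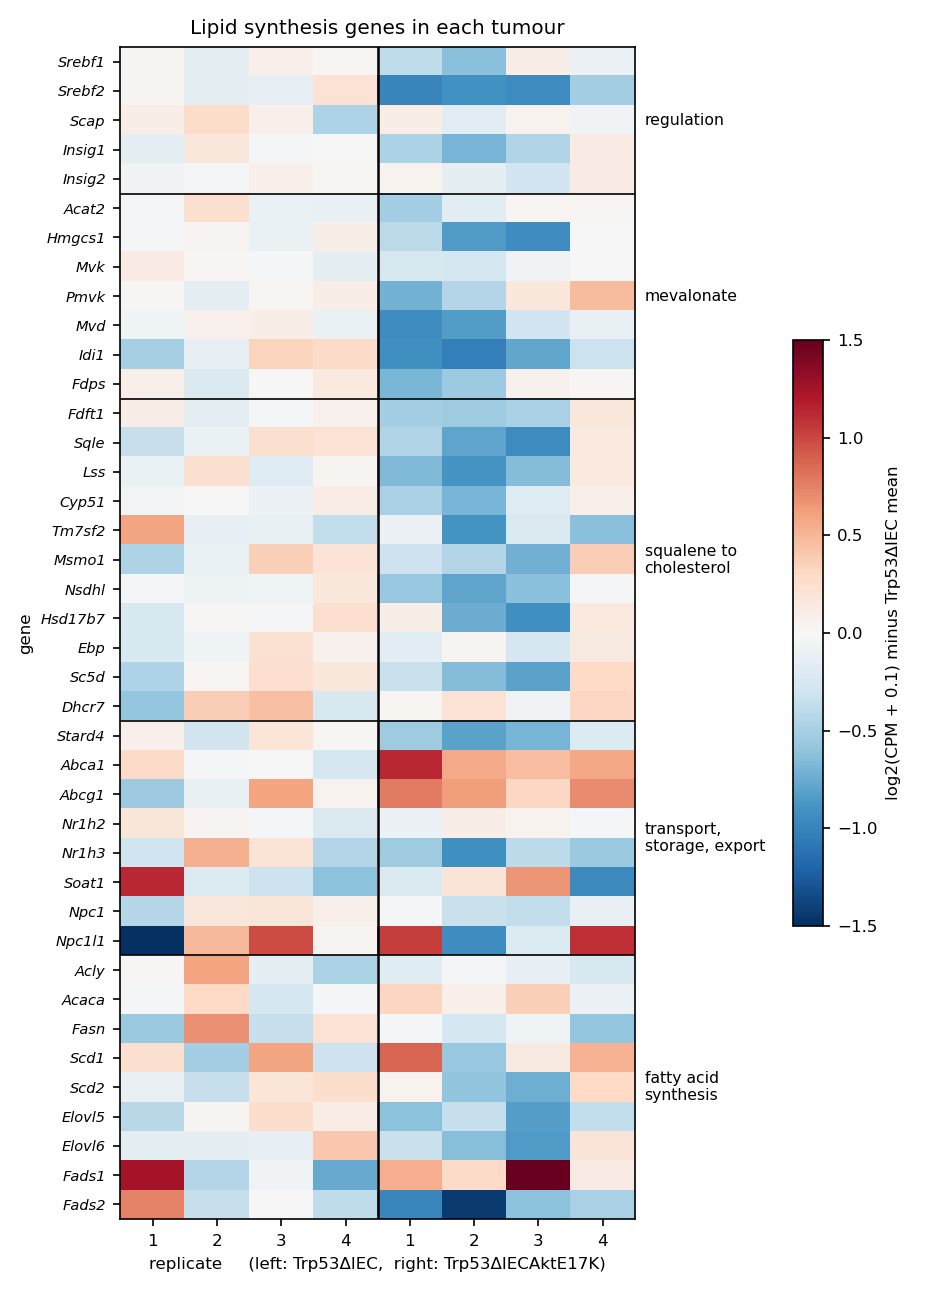
Each row is a gene and each column a tumour, and colour gives log2(CPM + 0.1) minus the mean of the Trp53ΔIEC tumours, cut at 1.5. Most sterol genes are blue in Trp53ΔIECAktE17K replicates 1 to 3 and near white or pale red in replicate 4, whereas Abca1 and Abcg1 are red in all 4.

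Levels differed widely between genes when divided by exon length. In the Trp53ΔIEC tumours the highest was Scd2, a stearoyl-CoA desaturase, at 236 CPM per kilobase. The level of Hmgcs1, which makes HMG-CoA at the entry to the pathway, was 71.2 CPM per kilobase, and those of Acly, Cyp51 and Srebf2 were 66.8, 66.6 and 65.6. The lowest was Npc1l1, the sterol uptake protein of the small intestine, at 0.111 CPM per kilobase. Npc1l1 was thus near the limit of detection, at 0.0765 to 0.978 CPM in the 8 tumours.

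Among the regulators Srebf2 was the called gene. Srebf2 (ENSMUSG00000022463, chromosome 15, 82147181 to 82205379, plus strand, GRCm38) was at 483, 428, 430.2 and 544 CPM in Trp53ΔIEC replicates 1 to 4 and at 237, 251, 245 and 328 CPM in Trp53ΔIECAktE17K replicates 1 to 4. The highest Trp53ΔIECAktE17K tumour, replicate 4, lay below the lowest Trp53ΔIEC tumour. The log2 fold change was -0.83 ± 0.15 (SE, adjusted p = 0.0264), with lower values in 4 of 4 tumours. An exact permutation test of the group labels gave a two-sided p of 0.0286, the smallest that 4 against 4 tumours allow. Any gene whose groups do not overlap gets this value, as 14.2% of all tested genes would, so it adds nothing to the separation. With 1 tumour left out, Srebf2 was called in 2 of 8 runs (log2 fold change -0.97 to -0.76, adjusted p = 0.0119 to 0.0817). It was called without Trp53ΔIECAktE17K replicate 3 or replicate 4, and not without any of the other 6. Adding the title letter to the model gave -0.72 (adjusted p = 0.158), in a model that called 0.58% of all genes and 0.0363% lower.

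Srebf1, the gene of SREBP1, was not called. It was at 268, 236, 274 and 267 CPM in Trp53ΔIEC tumours and at 199.7, 169, 279.9 and 245 CPM in Trp53ΔIECAktE17K tumours. The groups overlapped, since Trp53ΔIECAktE17K replicate 3 was the highest of all 8, and the log2 fold change was -0.23 (95% interval -0.61 to 0.16, adjusted p = 0.484). Whether Srebf1 differs from Srebf2 in its response was not tested.

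Scap was at 104, 118, 103 and 70.4 CPM against 104, 86.4, 101 and 94.0 CPM, with a log2 fold change of -0.04 (95% interval -0.41 to 0.34, adjusted p = 0.928). Insig1, itself a target of SREBP2 and a brake on its release, was at 72.2, 89.5, 79.0 and 79.6 CPM against 57.4, 49.0, 58.2 and 87.2 CPM. Trp53ΔIECAktE17K replicates 1 to 3 lay below every Trp53ΔIEC tumour, and replicate 4 lay within their range (log2 fold change -0.35, adjusted p = 0.325). Insig2, the second brake, was at 50.6, 51.4, 55.2 and 53.0 CPM against 54.6, 47.7, 43.2 and 57.2 CPM (log2 fold change -0.05, 95% interval -0.34 to 0.23). For Scap and Insig2 the intervals span no change and leave room for differences of up to about these bounds.

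The promoters of 4 genes are shown to set the sequence beside the values: Srebf2 was the called gene, Hmgcs1 and Nsdhl are sterol enzymes with unadjusted p values under 0.05, and Abca1 was the highest of the 40 by log2 fold change. They were chosen with these values known. RefSeq promoter sequences (GRCm38.p6, 250 bases before to 50 after a start) were matched by symbol for 31 of the 40 genes. The others are Abcg1, Fdft1, Fdps, Sqle, Fads1, Stard4, Scd2, Scd1 and Npc1. Each window below runs 5′ to 3′, ends before the first annotated base of the gene in RefSeq or GENCODE, and has the matched motifs in capitals. Matches on either strand are capitalised, so that a CCAAT box can read as ATTGG and a GC box as CCGCCC.
Srebf2 (chr15:82147019-82147180, plus strand): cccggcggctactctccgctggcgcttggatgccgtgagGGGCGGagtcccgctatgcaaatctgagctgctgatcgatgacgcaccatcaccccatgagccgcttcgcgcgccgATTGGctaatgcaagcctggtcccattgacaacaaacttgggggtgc
Hmgcs1 (chr13:119690151-119690350, plus strand): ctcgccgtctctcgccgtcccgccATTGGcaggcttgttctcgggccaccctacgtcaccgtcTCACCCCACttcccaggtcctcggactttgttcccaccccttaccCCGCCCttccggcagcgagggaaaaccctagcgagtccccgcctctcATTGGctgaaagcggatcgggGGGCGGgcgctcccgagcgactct
Nsdhl (chrX:72918321-72918520, plus strand): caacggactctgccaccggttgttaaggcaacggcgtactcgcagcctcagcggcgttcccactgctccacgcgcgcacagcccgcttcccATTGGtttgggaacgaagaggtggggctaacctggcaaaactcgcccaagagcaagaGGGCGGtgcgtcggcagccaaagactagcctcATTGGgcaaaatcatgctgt
Abca1 (chr4:53159896-53160095, minus strand): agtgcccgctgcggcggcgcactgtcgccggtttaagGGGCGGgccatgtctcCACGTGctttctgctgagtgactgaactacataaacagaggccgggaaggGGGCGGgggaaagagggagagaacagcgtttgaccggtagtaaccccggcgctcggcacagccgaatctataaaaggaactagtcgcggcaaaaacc

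Motifs were searched as exact strings on both strands of the full 300 bases, so looser forms of a site were not sought. The SREBP core TCACNCCAC was found in 1 of the 31 genes, Hmgcs1, starting 137 bases before its start site. It was held by 1.24% of all 32851 mouse promoters and by 1.49% of the tested genes with a promoter. The CCAAT box, bound by NF-Y, which works together with SREBP at many sterol genes, was found in 23 of 31 genes, against 37.4% of all promoters and 42.0% of the 12052 tested genes with a promoter. The GC box GGGCGG was also found in 23 of 31, against 35.7% and 64.5%. The E-box CACGTG, a palindrome, was found in 7 genes, against 7.15% and 11.1%, and the direct repeat of the liver X receptors in 0 genes, against 0.0152% of promoters. The CCAAT box of Srebf2 lies 135 bases before the RefSeq start, and Abca1 holds an E-box 147 bases before its start. The motifs do not overlap one another in these windows, and a match describes letters, not binding. Likewise, the lack of an exact match does not show that a gene has no site for the factor. The exact liver X receptor repeat was held by 5 of 32851 promoters and 0 of the 12052 tested genes with a promoter. Its absence here therefore cannot tell whether Abca1 or another of these genes has a looser site.

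The 7 mevalonate genes, which carry acetyl units to the isoprenoid farnesyl diphosphate, all had log2 fold changes below 0, with a median of -0.25, and 0 were called. With the title letter as a term 4 of the 7 were below 0, and Acat2, Pmvk and Fdps were above. Hmgcs1 was at 319.7, 336, 306 and 348 CPM in Trp53ΔIEC tumours and at 248, 181, 171 and 329 CPM in the Akt group. The log2 fold change was -0.50 ± 0.21 (SE, adjusted p = 0.227). Its first 3 Trp53ΔIECAktE17K tumours lay below all Trp53ΔIEC tumours, and replicate 4 lay among them. Mvd, the decarboxylase that makes isopentenyl diphosphate, was at 102, 111, 115 and 99.7 CPM against 55.7, 59.4, 87.1 and 98.8 CPM. Its groups did not overlap, by a margin of less than 1 CPM between replicate 4 of each group (log2 fold change -0.50 ± 0.20, SE, adjusted p = 0.188).

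Idi1, the isomerase of the next step, had the lowest log2 fold change of the branch, -0.78 ± 0.29 (SE, adjusted p = 0.171). It was at 5.51, 7.14, 9.83 and 9.54 CPM against 4.06, 3.79, 4.49 and 6.24 CPM, and its groups overlapped. Pmvk, the second kinase of the branch, was at 59.5, 52.9, 60.1 and 62.8 CPM against 35.8, 43.3, 65.6 and 81.4 CPM. Its Trp53ΔIECAktE17K tumours lay on both sides of the Trp53ΔIEC range (log2 fold change -0.06, 95% interval -0.63 to 0.51). Acat2, Mvk and Fdps had log2 fold changes of -0.15, -0.13 and -0.25, with adjusted p values of 0.495 to 0.636.

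Of the 11 enzymes from squalene synthesis to cholesterol, 10 had log2 fold changes below 0, with a median of -0.31, and 0 were called. Nsdhl, which removes a methyl group of the sterol ring, was at 119, 116, 117 and 136 CPM in Trp53ΔIEC tumours and at 81.9, 70.04, 78.9 and 119.5 CPM in Trp53ΔIECAktE17K tumours. Its log2 fold change was -0.48 ± 0.17 (SE, adjusted p = 0.164), and the groups overlapped through replicate 4. Lss, which closes the sterol rings, was at 71.4, 90.4, 67.1 and 78.9 CPM against 48.2, 41.3, 48.5 and 84.6 CPM (log2 fold change -0.47, adjusted p = 0.293). Here too the first 3 Trp53ΔIECAktE17K tumours lay below every Trp53ΔIEC tumour and replicate 4 did not.

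Tm7sf2, a sterol reductase, was at 126, 76.5, 77.0 and 64.5 CPM against 78.4, 44.5, 71.4 and 53.6 CPM, with a wide overlap (log2 fold change -0.47, adjusted p = 0.334). Dhcr7, the enzyme of the last step to cholesterol, was the 1 sterol enzyme with a log2 fold change above 0. It was at 111, 214, 227 and 142 CPM against 169, 194, 161 and 206 CPM (log2 fold change 0.07, 95% interval -0.46 to 0.61), and all 4 Trp53ΔIECAktE17K tumours lay within the Trp53ΔIEC range. The rate-limiting epoxidase gene Sqle had a log2 fold change of -0.47 (95% interval -1.06 to 0.12, adjusted p = 0.342). The remaining 6 enzymes, Fdft1, Cyp51, Msmo1, Hsd17b7, Ebp and Sc5d, had log2 fold changes of -0.33 to -0.06. Exons of another gene overlap 18.31% of the exon length of Fdft1, 12.08% of that of Tm7sf2 and 13.23% of that of Scap, so reads there may be left out or assigned to the neighbour.

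**Figure D2:**
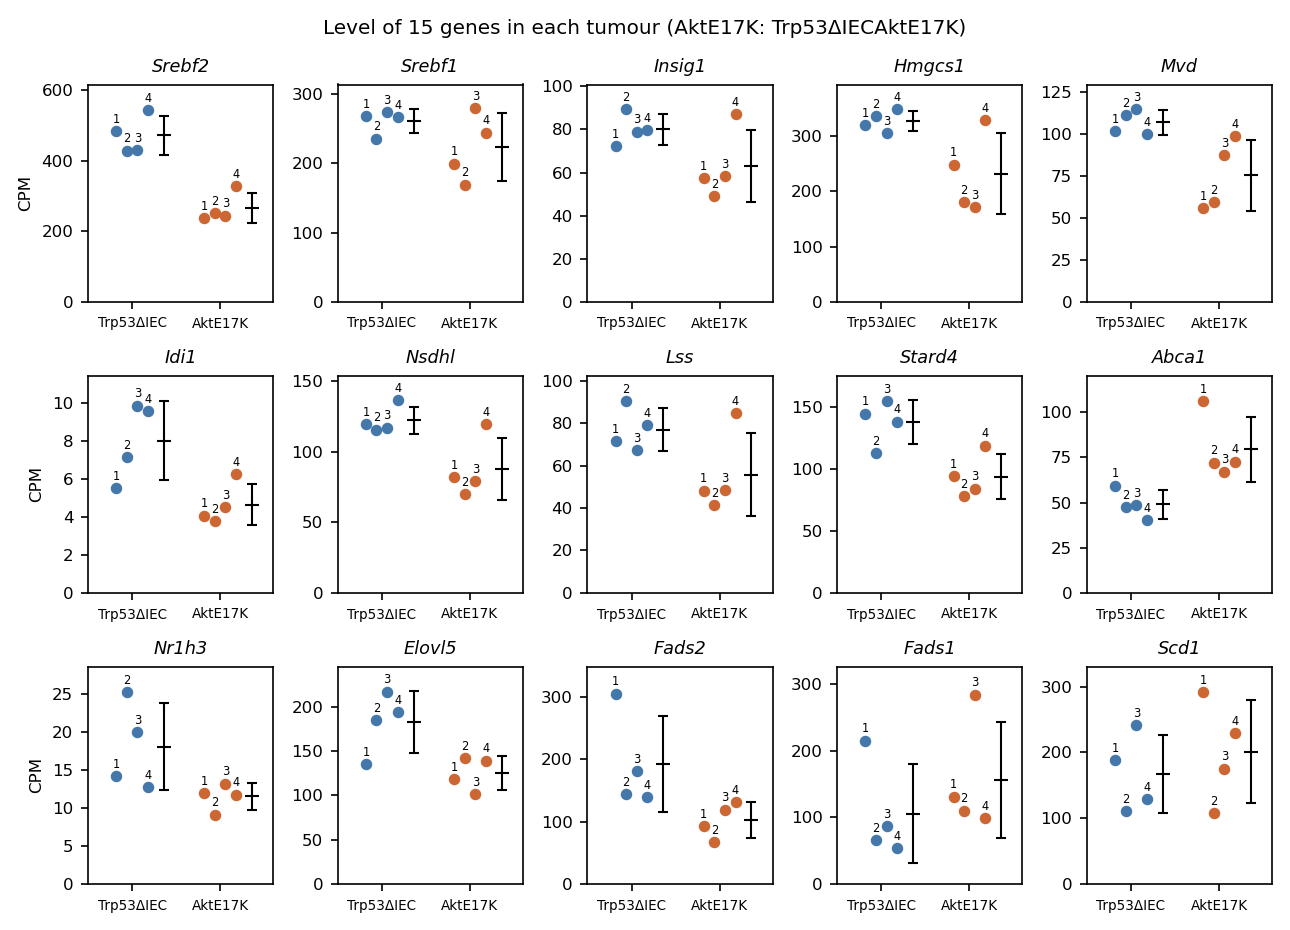
CPM of 15 genes in each tumour, with the replicate number above each point and the mean ± SD as black bars (n = 4 per group). Srebf2, Mvd, Fads2 and Abca1 are the panels in which the groups do not overlap. Replicate 4 is the highest Trp53ΔIECAktE17K point in the Srebf2, Insig1, Hmgcs1, Mvd, Idi1, Nsdhl, Lss, Stard4 and Fads2 panels.

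The Trp53ΔIECAktE17K tumours differed among themselves in the sterol enzymes. Replicate 4 was the highest of the 4 in 15 of the 18 enzymes (83.3%), against 26.2% of all tested genes. Replicates 1, 2 and 3 lay below all 4 Trp53ΔIEC tumours in 12, 15 and 12 of the 18, and replicate 4 in 2. The same held for 25.6%, 26.9%, 29.7% and 22.0% of all tested genes in replicates 1 to 4. The mean deviation of the 18 enzymes from the Trp53ΔIEC mean was -0.44, -0.57, -0.43 and 0.07 on the log2 scale in Trp53ΔIECAktE17K replicates 1 to 4, and between -0.12 and 0.07 in the Trp53ΔIEC tumours. Without Trp53ΔIECAktE17K replicate 4, 5 of the 40 genes were called lower (Srebf2, Fdft1, Lss, Nsdhl and Stard4). In that fit 1.46% of all genes were called lower and 5.63% were called. That tumour was singled out by its high values in these same genes, so its removal favours their calls and is no separate support. Each other removal called 0 or 1 of the 40. Replicate 4 is 1 mouse, and the labels give nothing that sets it apart.

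Within its group, replicate 4 also had the highest summed level of 8 epithelial markers. The control tumours held 7649 to 9929 CPM, against 5126, 6301, 3946 and 10217 CPM in replicates 1 to 4 of the Akt group. Of the 8 markers, 7 had log2 fold changes below 0 and 0 were called. Among them the adhesion gene Epcam stood at -0.60 (log2 fold change, adjusted p = 0.140) and the brush border gene Vil1 at -1.21 (adjusted p = 0.138), both with no overlap between the groups. All 8 were detected in every tumour. In replicate 4 the lectin gene Lgals4 gave 3059 CPM of the sum. It lay above every Trp53ΔIEC tumour, as did Krt20 (802 CPM) and, narrowly, Krt8 (2148 CPM against at most 2142 CPM). Epcam (1890.3 CPM), Vil1 (517 CPM) and Krt18 (670.1 CPM) lay below every Trp53ΔIEC tumour. Krt20 was the 1 marker with a log2 fold change above 0 (0.84, adjusted p = 0.434). Summed levels of 6 fibroblast markers were 2151 to 3316 CPM against 4078 to 6609 CPM, and 3 of the 6 (Col1a1, Col1a2 and Dcn) were called higher, where 3.44% of all genes were. Collagen genes make up most of that sum, and Pdgfra, a receptor gene of the same list, was at 148 ± 50.1 against 83.0 ± 32.8 CPM (log2 fold change -0.84, adjusted p = 0.225). All 6 smooth muscle markers were called higher, and their sums were 261 to 439 CPM against 1059.9 to 1726 CPM. In bulk tumours, fewer cells of a type and less RNA per cell cannot be told apart, and the part of tissue composition in the sterol values was not tested.

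**Figure D3:**
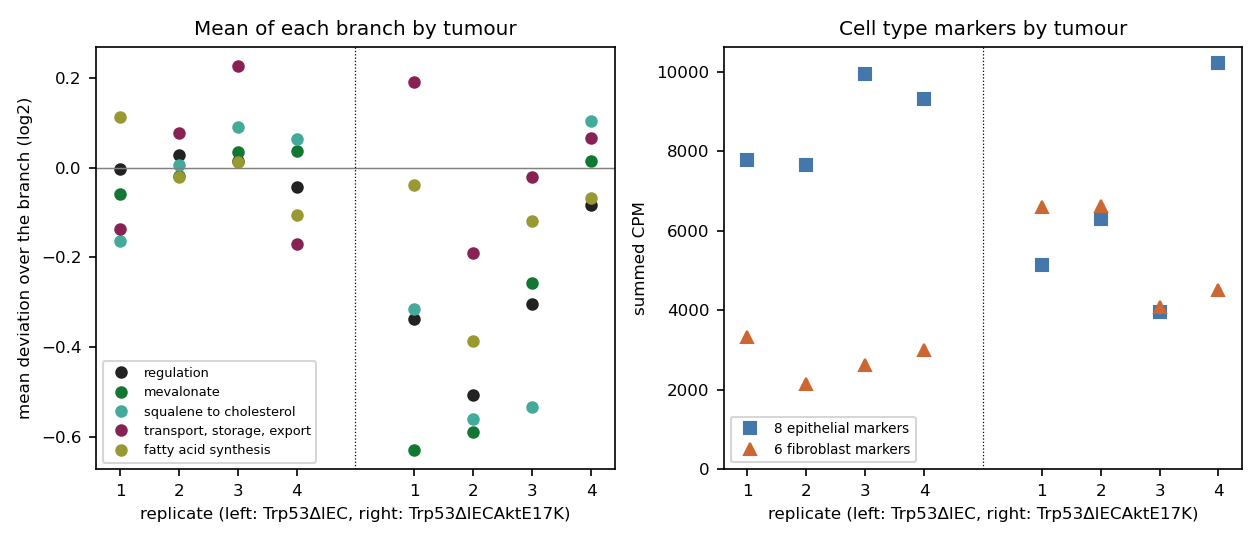
Left, the mean over each branch of the deviation of log2(CPM + 0.1) from the Trp53ΔIEC mean, per tumour. Right, the summed CPM of 8 epithelial and 6 fibroblast markers per tumour. Trp53ΔIECAktE17K replicate 4 is near 0 for both sterol synthesis branches and has the highest epithelial sum of its group, 10217 CPM.

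Of the 8 genes of sterol transport, storage and export, 4 had log2 fold changes below 0 and 4 above, and 0 were called. Abca1, which loads cholesterol onto lipoproteins and is a target of the liver X receptors, was at 59.4, 47.5, 48.6 and 40.3 CPM in Trp53ΔIEC tumours and at 106, 72.0, 67.1 and 72.6 CPM in Trp53ΔIECAktE17K tumours. Every Trp53ΔIECAktE17K tumour lay above every Trp53ΔIEC tumour, with replicate 1 the highest. The log2 fold change was 0.70 ± 0.18 (SE, adjusted p = 0.0775), so Abca1 missed the threshold, and with 1 tumour left out it ranged from 0.50 to 0.80 with 0 calls in 8 runs. DESeq2 gave it an adjusted p of 0.0234. Abcg1, another target of these receptors, is named after its values were seen, and their targets were not examined as a set. Abcg1 was at 13.3, 18.05, 29.4 and 20.2 CPM against 33.3, 30.0, 24.2 and 31.9 CPM, with an overlap through Trp53ΔIEC replicate 3 (log2 fold change 0.56 ± 0.25, SE, adjusted p = 0.241). Not all ABC sterol transporters lay this way. In the wider lists Abcg5 had a log2 fold change of 0.50 and Abcg8 of -0.27, neither called.

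The receptors themselves did not share the direction of Abca1 and Abcg1. Nr1h3, the liver X receptor gene prominent in macrophages and liver, was at 14.1, 25.2, 19.9 and 12.7 CPM against 11.9, 9.09, 13.2 and 11.7 CPM (log2 fold change -0.65 ± 0.26, SE, adjusted p = 0.201). Its groups overlapped narrowly, between 12.7 and 13.2 CPM. Nr1h2, the widely expressed receptor gene, had means of 154.6 ± 17.4 and 154.8 ± 8.75 CPM and a 95% interval of -0.27 to 0.27. Of 6 macrophage markers 0 were called, and their summed level was 264 to 535 CPM against 201 to 604 CPM.

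Stard4, a carrier of sterol within the cell and a target of SREBP2, was at 145, 113, 155 and 138 CPM against 94.4, 78.1, 84.1 and 119 CPM. Trp53ΔIECAktE17K replicate 4 alone reached the Trp53ΔIEC range (log2 fold change -0.55 ± 0.16, SE, adjusted p = 0.106), and DESeq2 gave an adjusted p of 0.0306. Npc1, which moves sterol out of lysosomes, had a log2 fold change of -0.22 (95% interval -0.60 to 0.15). Soat1, which esterifies sterol for storage, was at 349, 139, 128 and 104 CPM against 137, 182, 253 and 82.4 CPM. Its tumours varied so widely that the 95% interval ran from -1.18 to 0.90.

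The 9 fatty acid genes had a median log2 fold change of -0.20, and 0 were called. Whether they differ as a branch from the sterol enzymes was not tested. The groups overlapped for the core enzymes. Acly, which makes acetyl-CoA from citrate, was at 353 ± 114 CPM and 309 ± 20.4 CPM, and Acaca, which makes malonyl-CoA, at 24.2 ± 3.94 and 27.1 ± 3.88 CPM. Fasn, the fatty acid synthase gene, was at 418, 989.6, 486 and 714 CPM against 606, 513, 588 and 413 CPM (log2 fold change -0.30, 95% interval -0.94 to 0.34). The Trp53ΔIEC tumours alone spanned a more than 2-fold range of Fasn.

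Among desaturases and elongases, Elovl5, Elovl6, Scd2 and Fads2 had log2 fold changes below 0 and Scd1 and Fads1 above. Elovl5, which lengthens polyunsaturated fatty acids, was at 135, 185, 217 and 194 CPM against 118, 142, 102 and 139 CPM (log2 fold change -0.55 ± 0.18, SE, adjusted p = 0.129), with an overlap through Trp53ΔIEC replicate 1. Elovl6, which lengthens saturated ones, was at 58.9, 58.2, 59.0 and 85.2 CPM against 51.1, 41.4, 35.8 and 73.9 CPM (log2 fold change -0.37, adjusted p = 0.431). For Elovl6 the first 3 Trp53ΔIECAktE17K tumours lay below every Trp53ΔIEC tumour, and replicate 4 lay above 3 of them. Scd1 and Scd2, which introduce the first double bond, had log2 fold changes of 0.27 and -0.20 with 95% intervals of -0.52 to 1.05 and -0.79 to 0.40. The Scd genes are similar in sequence, and reads that fit more than 1 place are not counted, so their levels rest on the reads that differ.

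Fads2, the delta-6 desaturase, had the lowest log2 fold change of the 40 genes, -0.91 ± 0.30 (SE, adjusted p = 0.138). It was at 306, 144, 181 and 139.9 CPM against 92.7, 67.5, 119 and 131 CPM, and its groups did not overlap. Without any 1 tumour in turn, its log2 fold change ranged from -1.07 to -0.60. Fads1, the delta-5 desaturase and its neighbour in the genome, lay the other way with a wide spread. It was at 215, 66.1, 86.8 and 53.1 CPM against 131, 109.9, 284 and 98.4 CPM, with a log2 fold change of 0.57 (95% interval -0.59 to 1.73) that was 1.18 without Trp53ΔIEC replicate 1 and 0.11 without Trp53ΔIECAktE17K replicate 3. The highest tumour of each group, Trp53ΔIEC replicate 1 and Trp53ΔIECAktE17K replicate 3, was also the highest of its group in Soat1.

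**Figure D4:**
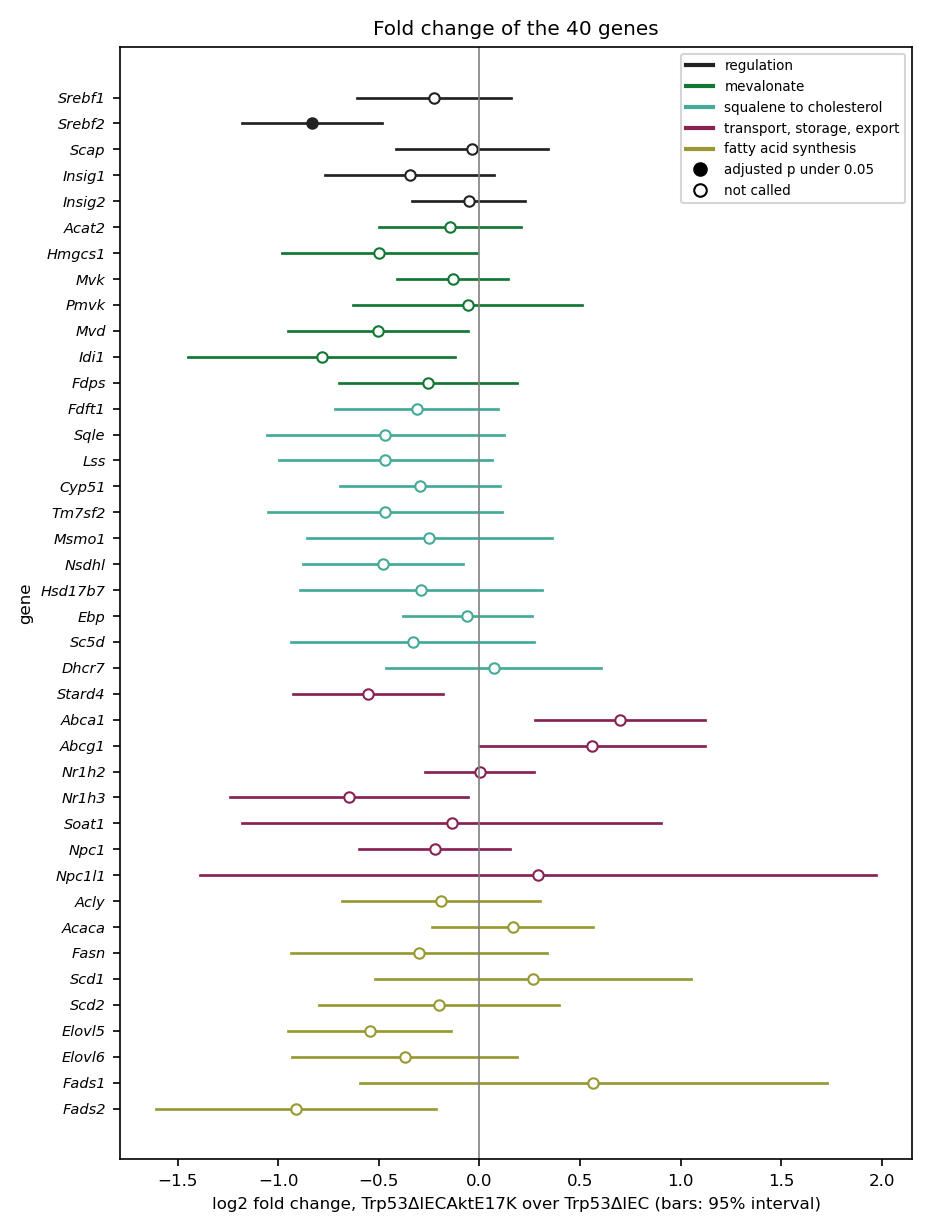
Log2 fold change of each of the 40 genes with its 95% interval, coloured by branch, with a filled point for an adjusted p under 0.05. Srebf2 is the filled point, 17 of the 18 sterol enzymes lie left of 0, and Abca1 and Abcg1 lie to the right.

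Further genes of the same pathways came from lists of 51 genes, of which 50 passed the filter on low counts and 0 were called in edgeR. Of the 50, 29 had log2 fold changes below 0 (58.0%), against 48.9% of all tested genes. By unadjusted p under 0.05, 6 of 50 were lower, against 8.07% of all genes, and 2 of 50 higher, against 12.8%. DESeq2 called 3 (Erlin2, Lpcat3 and Thrsp), where it called 12.1% of its genes, and limma-voom 0. These counts are near the background or under it. The fatty acid elongase gene Elovl3 was the 1 gene that did not pass the filter. The 7 genes of SREBP processing and sterol sensing had a median of -0.32, with 6 of 7 below 0. Erlin2, which encodes a membrane protein of sterol-regulated protein breakdown, was at 172, 139, 147 and 136 CPM against 114, 115, 91.5 and 112 CPM (log2 fold change -0.46 ± 0.13, SE, adjusted p = 0.0916). Mbtps2, the gene of the site-2 protease that releases SREBP, was at 35.4, 44.7, 38.1 and 34.9 CPM against 31.9, 31.7, 25.0 and 30.8 CPM (log2 fold change -0.36, adjusted p = 0.202). In both genes, named for their small unadjusted p values, every Trp53ΔIECAktE17K tumour lay below every Trp53ΔIEC tumour. Over the 50 genes the groups were separated in 3 that were lower (6.0%), against 5.88% of all tested genes. They were separated in 1 that was higher, against 8.34%. These shares are near the background or under it.

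The 9 isoprenoid and other sterol enzymes had a median of -0.07. Their smallest unadjusted p values belonged to Ch25h and Cyp27a1, which make oxysterols. On the log2 scale Ch25h differed by 1.06 (adjusted p = 0.313) and Cyp27a1 by -0.96 (adjusted p = 0.330). Ch25h was at 3.68 to 20.1 CPM in Trp53ΔIECAktE17K and 3.44 to 4.78 CPM in Trp53ΔIEC tumours, and its high value came from Trp53ΔIECAktE17K replicate 2. Without that tumour the log2 fold change was 0.24. Cyp27a1 reached 142 CPM in Trp53ΔIEC replicate 1, where the rest of that group lay at 31.7 to 56.4 CPM, and without replicate 1 it differed by -0.36. The 13 genes of sterol uptake, transport and esterification had a median of 0.02, with Osbp, a sterol transfer protein gene, at -0.29 (adjusted p = 0.232) and Abca7 at 0.46 (adjusted p = 0.328).

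The 21 tested genes of the wider fatty acid and glyceride list had a median of -0.10, with 11 below 0 and 10 above. Lpcat3, which puts polyunsaturated fatty acids into phospholipids, was at 256, 192, 231 and 218 CPM against 134, 173, 159.5 and 174 CPM. Its groups did not overlap (log2 fold change -0.49 ± 0.14, SE, adjusted p = 0.0930). Thrsp, a lipogenic gene of fat and liver, was at 0.536, 1.02, 1.06 and 0.233 CPM against 3.43, 4.81, 0.798 and 1.77 CPM, low in all tumours (log2 fold change 1.92, adjusted p = 0.142).

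Markers of other cell types moved with the groups in several lists. The adipocyte genes Adipoq, Plin1, Lep and Retn did not pass the filter, at 0 to 0.635 CPM, while Fabp4, also made by other cells such as endothelium, was called higher (6.76 ± 1.64 against 40.2 ± 23.3 CPM). Cidec, the other adipocyte gene tested, was not called and its groups overlapped (log2 fold change 0.99, adjusted p = 0.404). The sum of the 6 adipocyte markers was 5.57 to 10.5 CPM against 22.3 to 76.7 CPM, with no overlap between the groups. Fabp4 made up most of it, with 73.9 CPM of the highest sum and 20.2 CPM of the lowest in the Trp53ΔIECAktE17K group. Of the sebaceous gland genes, Awat1 was at 0 in all tumours and Mc5r at 0 to 0.0931 CPM, and the 6 summed to 7.40 to 16.2 CPM against 9.83 to 28.1 CPM with 0 called. Of 8 hepatocyte markers, which sum to 67.6 to 138 CPM against 32.0 to 160.5 CPM, Crp and Hpx were called lower, where 0.756% of all genes were. Of the 7 tested, 4 had log2 fold changes below 0 and 3 above. Those above included Ahsg (1.61) and Fgb (2.29), neither called. Fgb in Trp53ΔIECAktE17K replicate 3 alone gave 126 CPM of the highest sum. Crp reached 4.80 to 5.64 CPM in Trp53ΔIEC tumours against 0 to 0.0423 CPM. Of 6 heart muscle markers 4 were called higher, where 3.44% of all genes were. Among them Myh6 ranged from 0 to 0.223 CPM in the control group and from 47.6 to 57.0 CPM with the Akt allele. Myl7 lay the other way and was not called (43.2 ± 40.3 against 32.8 ± 19.9 CPM). Nppa, at 0 to 0.254 CPM, did not pass the filter. The 6 summed to 14.9 to 106 CPM against 81.8 to 130.4 CPM, and Myl7 alone gave 102 CPM of the highest control sum. Of 6 squamous epithelium markers 3 were called higher, against 3.44% of all genes, while DESeq2 called 4 and limma-voom 0. Their sums were 53.2 to 224 CPM against 55.5 to 11832 CPM, the highest in Trp53ΔIECAktE17K replicate 1. Schwann cell and enteric glia markers summed to 3.02 to 5.15 CPM against 5.54 to 14.4 CPM, also with no overlap, and Sox10 was called higher. The part of RNA from other tissues in the lipid gene values was not tested.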

How the data were processed

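Whole tumours were profiled by RNA-seq, and the authors deposited unnormalised read counts per Ensembl gene for each tumour. Per the submitters' processing notes the tools include STAR 2.3.0 and HTSeq 0.6; the sources used here do not state the annotation release or strand setting. The 5 closing lines of each table, were left out of library sizes; reads in no gene were 9.74% to 11.7% and ambiguous reads 1.93% to 2.32% of uniquely aligned reads. Names came from GENCODE M21, which held 95.4% of the identifiers. Counts were filtered with filterByExpr, scaled by TMM and tested between the groups with edgeR 4.0.16 in R 4.3.3 (robust quasi-likelihood test, Benjamini-Hochberg adjustment over 16539 genes). The procedure was also run on simulated counts, drawn independently with a set spread. That simulation held no batch or tissue differences between tumours, so it checks the code and not the calls in these data. DESeq2 1.42.0, limma 3.58.1, other scalings and filters, a replicate block, the title letter and the removal of each tumour were alternatives. The members and lists were chosen with earlier results of these data known. Genes given tumour by tumour were the regulators, called genes, the 3 smallest p values and the extreme fold changes of each branch, and in the wider lists the 2 smallest p values each. Values of other members, such as Abcg1, Soat1 and Fasn, were added for their roles after being seen.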

Additional observations from a re-analysis of the deposited data

Results flagged for a closer look

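In each group of 4 tumours the highest and lowest value were compared with the others by Dixon's test, over 96 group values of the members and the other named genes. Values beyond the 95% critical ratio were found 8 times, and chance alone gives about 1 in 20. In Trp53ΔIECAktE17K replicate 4, Srebf2 was at 328 CPM where the other 3 tumours of its group were at 237 to 251 CPM. The same tumour stood apart for the squalene synthase gene Fdft1, at 146 CPM against 89.9 to 93.1 CPM. It also stood apart for Lss, at 84.6 CPM against 41.3 to 48.5 CPM. Abca1 was at 106 CPM in Trp53ΔIECAktE17K replicate 1, against 67.1 to 72.6 CPM in the other 3. In the Trp53ΔIEC group, Soat1 was at 349 CPM in replicate 1, against 104 to 139 CPM, and Elovl6 at 85.2 CPM in replicate 4, against 58.2 to 59.0 CPM. In Trp53ΔIECAktE17K replicate 3, Erlin2 was at 91.5 CPM against 112 to 115 CPM, and Mbtps2 at 25.0 CPM against 30.8 to 31.9 CPM.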

How the results depend on the processing

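Of all genes tested, 694 were called, against 50 with the replicate block, 96 with the title letter as a term, 2489 with DESeq2 and 74 to 949 with each tumour left out. Among the 40 genes 1 was called, against 0 with the replicate block (smallest adjusted p = 0.0750), 0 with the title letter, 4 with DESeq2 and 0 to 5 with a tumour left out. Of the wider lists 0 were called, and 3 with DESeq2. Same-numbered tumours had correlated deviations of -0.243 to 0.0093, and 0 of 8 correlated best with their own number. These correlations thus showed no pairing by number, though with so few tumours they cannot exclude it. In the title letter model the group difference rests on Trp53ΔIECAktE17K replicates 3 and 4 alone, against the Trp53ΔIEC tumours. There, log2 fold changes turned to 0.0052 for Srebf1, 0.0237 for Acat2, 0.32 for Pmvk, 0.0359 for Fdps and -0.13 for Ch25h. Upper-quartile scaling gave 0.00217 for Scap. For Nr1h2, RLE size factors gave -0.0108 and DESeq2 -0.0158. With a tumour left out, 9 genes crossed 0: Scap (-0.175 to 0.0547), Insig2 (-0.132 to 0.0226), Pmvk (-0.308 to 0.0835), Ebp (-0.144 to 0.0106), Dhcr7 (-0.0975 to 0.201), Nr1h2 (-0.0699 to 0.0604), Soat1 (-0.42 to 0.40), Npc1l1 (-0.0853 to 0.684) and Acly (-0.334 to 0.0409). The cause of the changes in the other settings was not tested. Over 16 settings, single genes of the 40 kept direction and side of the threshold 599 times, reversed 26 times, gained a call 7 times and lost one 8 times. With 4 tumours a group, intervals of single genes are wide, and Npc1l1 and Thrsp rest on few reads.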
